A study of Mus musculus with 6 samples.

Results

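The 7 genes followed here are ones whose loss or variation is linked to diabetes in people, namely Hnf4a, Wfs1, Cisd2, Ier3ip1, Yipf5, Trmt10a and Cdkal1. They were chosen by symbol as genes of monogenic or syndromic diabetes that act in the nucleus, in the endoplasmic reticulum (ER) or on tRNA, and all 7 were found among the 21652 genes of the count table. Footprints were measured by ribosome profiling, in which nuclease leaves only the mRNA fragments covered by ribosomes, in 3 libraries of MIN6 cells with the sgLTN1 genotype and 3 libraries of MIN6 cells with the sgNT genotype. MIN6 cells come from a mouse beta-cell tumour and secrete insulin. sgLTN1 is a guide RNA against Ltn1, the gene of the ubiquitin ligase Listerin that marks incomplete chains on stalled ribosomes, and sgNT is taken as the non-targeting control guide. The labels name no treatment, and they do not say whether the sgLTN1 cells were 1 clone or a pool, nor whether separate cultures were sequenced. The p-values therefore reflect only how these libraries differ among themselves, which may be technical.

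The genes fall into 3 groups by the work of their products. Hnf4a encodes a nuclear receptor that binds DNA as a homodimer, and heterozygous loss of the human gene causes maturity-onset diabetes of the young. Wfs1, Cisd2, Ier3ip1 and Yipf5 encode membrane proteins of the ER and early secretory pathway, where a beta cell folds and exports large amounts of proinsulin. Trmt10a and Cdkal1 encode enzymes that modify tRNA at or near the anticodon or in the body of the molecule, and human CDKAL1 is known mainly for common variants associated with type 2 diabetes rather than for a single-gene disease.

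The libraries held between 4993245 and 11198735 counts in sgLTN1 cells and between 4373467 and 7802364 counts in sgNT cells. Values are given in CPM, which are counts divided by the TMM-scaled library total and put on a common size, and they were not divided by gene length, so levels are compared between libraries and not between genes. Ltn1 itself averaged 67.2 ± 3.67 CPM in sgLTN1 cells and 143 ± 1.84 CPM in sgNT cells (SD, n = 3 each), with no overlap. Most beta-cell markers were present in both groups, with Ins2 at 50415 and 47665 CPM and Mafa at 112 and 106 CPM in sgLTN1 and sgNT cells, but Ucn3 was at 0.102 and 0.524 CPM and Slc2a2 at 0.747 and 0.738 CPM. The 14 fibroblast, endothelial and leukocyte markers together read 44.5 to 51.0 CPM in sgLTN1 libraries and 48.5 to 57.1 CPM in sgNT libraries. In sgLTN1 and sgNT cells Ptprc, a leukocyte gene, was at 0.567 and 0.348 CPM, and Pecam1, an endothelial gene, at 0.501 and 0.379 CPM. Another leukocyte gene of this list, Cd68, was higher, with a mean of at least 10 CPM (log2 fold change -0.19, sgLTN1 over sgNT). The 15 acinar and duct markers summed to 2072 to 2228 CPM in sgLTN1 libraries and 1891 to 2033 CPM in sgNT libraries, nearly all of it from Spp1, while the acinar gene Prss2 was at 0.145 and 0.190 CPM in sgLTN1 and sgNT cells. The 9 markers of other islet cells summed to 4917 to 5597 CPM in sgLTN1 libraries and 4122 to 4321 CPM in sgNT libraries, most of it from Ttr. The part of the last 2 in the results was not tested.

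The comparison of sgLTN1 with sgNT cells asks how a guide against Ltn1 goes with ribosome occupancy on the diabetes genes. None of the 7 genes passed an adjusted p of 0.05 over all 12782 tested genes (Benjamini-Hochberg values of the edgeR quasi-likelihood test), where 0.18% of genes passed. Counts were high enough to test 6 of them. Wfs1, Yipf5, Ier3ip1 and Cdkal1 lay above 0 and Cisd2 and Trmt10a below, with a median log2 fold change of 0.08, against -0.02 over all tested genes. For Wfs1 and Yipf5 the groups did not overlap, as for 20.2% of all tested genes. Both also had an unadjusted p below 0.05, as had 15.6% of all tested genes. In these bulk libraries a difference in footprints cannot be divided into mRNA amount and ribosome density, nor can fewer cells of a type and less RNA per cell be told apart.

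**Figure D1:**
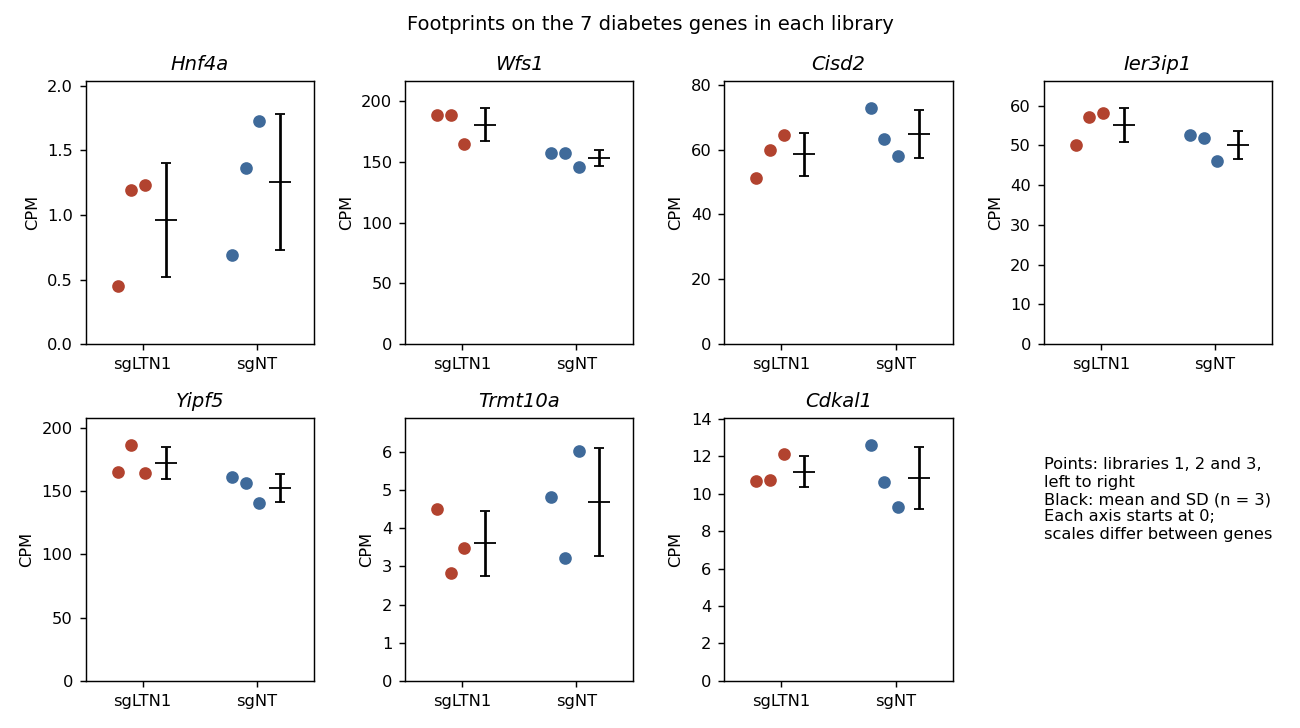
CPM of each of the 7 genes in each library (points, libraries 1 to 3 from left to right) with the mean and SD of each group of 3 libraries in black, on axes that start at 0. The sgLTN1 points lie above all sgNT points for Wfs1 and Yipf5, and the groups overlap for the other 5 genes.

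Among the nuclear members, Hnf4a was at the edge of detection. The gene is known to have alternative promoters, and the gene-level counts pool transcripts of all of them. Hnf4a (ENSMUSG00000017950.17) had 5, 11 and 6 counts in the sgLTN1 libraries, against 3, 11 and 8 counts in the sgNT libraries, each in the order 1 to 3 that is kept below. On the scaled values this was 0.451, 1.19 and 1.23 CPM in sgLTN1 cells and 0.688, 1.36 and 1.73 CPM in sgNT cells, and the groups overlapped. The gene therefore fell below the filter on low counts and was not tested with it. Without the filter the log2 fold change was -0.49 (edgeR, adjusted p = 0.786). The gene also passed the filter without sgNT library 1 (-0.73, adjusted p = 0.564) and without sgLTN1 library 3 (-0.68, adjusted p = 0.565). Over the summed counts of each group, 22 and 22, the ratio of sgLTN1 to sgNT was 0.679 (exact 95% interval 0.359 to 1.29, for counting error only). The interval holds both lower and higher levels in sgLTN1 cells and leaves out the spread between libraries, so it settles no direction. The authors' deposited table gave Hnf4a a mean normalized count of 7.24, a log2 fold change of -0.43 (SE 0.73) and no adjusted p.

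The close relative Hnf4g was also scarce and held 32 counts over the sgLTN1 libraries and 26 over the sgNT libraries. Of 25 transcription factors and coregulators that work with Hnf4a, 17 were tested, none passed, 8 lay above 0, and the median was -0.04. Of 26 classical liver and gut targets of Hnf4a, 24 were in the table and 10 could be tested, with a median of -0.10 that turned to 0.04 once the abundance trend described below was removed. One of the 10 passed, Ttr, which encodes the thyroid hormone carrier transthyretin, at 4333, 4976 and 4810 CPM in sgLTN1 cells and 3706, 3703 and 3516 CPM in sgNT cells (0.37, SE 0.06, adjusted p = 0.0458). The Ttr call ended when any 1 library other than sgLTN1 library 3 was left out, with DESeq2 size factors and with the abundance trend removed.

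Wfs1 encodes wolframin, a glycoprotein of the ER membrane that takes part in ER calcium balance and restrains ER stress signalling, and its recessive loss causes Wolfram syndrome, with diabetes, optic atrophy and deafness. It had the smallest p of the 6 tested genes. Wfs1 (ENSMUSG00000039474.14) read 188, 189 and 165 CPM in sgLTN1 libraries and 157, 157 and 146 CPM in sgNT libraries. Every sgLTN1 library lay above every sgNT library, with library 3 the lowest in each group. The means were 181 ± 13.8 CPM in sgLTN1 cells and 153 ± 6.64 CPM in sgNT cells (SD, n = 3 each), a fold of 1.18 with a 95% interval of 1.06 to 1.32. The log2 fold change was 0.24 (SE 0.07), and it did not pass over all genes (adjusted p = 0.169). Without sgLTN1 library 3 it was 0.30 and passed (adjusted p = 0.0429), and without any other single library it did not. In the fit without sgLTN1 library 3, 333 of 13456 genes passed, against 23 of 12782 with all libraries. The authors' deposited table gave Wfs1 0.26 (SE 0.10) with adjusted p = 0.0668, where 8.42% of the 2697 genes with an adjusted p passed.

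The Wfs1 promoter is known as a target of the unfolded protein response, so the 250 bases before its RefSeq start (GRCm38.p6, minus strand, chr5:36988983-36989232) are shown with the CCAAT box, here on the opposite strand, in capitals.
Wfs1: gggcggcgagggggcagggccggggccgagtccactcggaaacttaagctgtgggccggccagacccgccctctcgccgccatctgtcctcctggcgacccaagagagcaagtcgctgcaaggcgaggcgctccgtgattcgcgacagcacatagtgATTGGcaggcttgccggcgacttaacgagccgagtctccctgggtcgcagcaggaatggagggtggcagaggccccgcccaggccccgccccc
The CCAAT box was present once, as in 33.8% of the 32851 windows of this length in the table. The longer ER stress element (CCAAT and CCACG with 9 free bases between them), which holds a CCAAT box and was searched on both strands, was not in this window and occurred in 0.113% of all windows. It was also absent from the windows of Hnf4a, Cisd2, Trmt10a and Cdkal1, the other members with a sequence in the table. Ier3ip1 and Yipf5 were not matched.

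Cisd2 encodes an iron-sulfur protein of the NEET family in the membranes of the ER and mitochondria, and its loss causes the second form of Wolfram syndrome. Cisd2 (ENSMUSG00000028165.10) read 51.2, 59.7 and 64.5 CPM in sgLTN1 libraries and 72.7, 63.3 and 58.0 CPM in sgNT libraries. The groups overlapped, with the lowest value in sgLTN1 library 1 and the highest in sgNT library 1. The fold of sgLTN1 over sgNT was 0.899 with a 95% interval of 0.764 to 1.06 (log2 fold change -0.15, SE 0.11, adjusted p = 0.541). Without sgNT library 1 the log2 fold change was -0.05. Its NEET relatives were close to it or to 0. Cisd1, the mitochondrial outer membrane member, read 84.1 ± 4.80 CPM in sgLTN1 cells and 91.4 ± 6.78 CPM in sgNT cells (-0.12, SE 0.08), and Cisd3, the mitochondrial matrix member, 3.31 ± 0.255 and 3.24 ± 0.573 CPM (0.03, SE 0.24, turning negative with total-count scaling).

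The 2 Wolfram genes were also set against each other within each library, which needs no scaling between libraries. The ratio of Wfs1 to Cisd2 counts was 3.68, 3.16 and 2.55 in sgLTN1 libraries and 2.16, 2.48 and 2.51 in sgNT libraries. All sgLTN1 ratios were higher than all sgNT ratios, although sgLTN1 library 3 and sgNT library 3 were close. The mean difference was 0.38 on the log2 scale (two-sided exact permutation p = 0.1, which is the smallest that 3 against 3 libraries can give, and 0.3 after adjustment over the 3 pairs compared). The part of the difference in abundance between the 2 genes was not tested.

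Of 29 NEET and ER calcium genes, 28 of them tested, none passed. The list had 15 members above 0 and a median of 0.03, against -0.02 over all tested genes. With total-count scaling its median was -0.05, against -0.09 over all tested genes. With the abundance trend removed it was -0.02, against 0.0003 over all tested genes. Stim1, the ER calcium sensor of store-operated entry, read 102, 105 and 95.3 CPM in sgLTN1 cells and 84.4, 77.2 and 75.7 CPM in sgNT cells (0.35, SE 0.07, adjusted p = 0.0908). Atp2a3, an ER calcium pump, read 437 ± 30.6 CPM and 363 ± 35.4 CPM in sgLTN1 and sgNT cells (0.27, SE 0.08), and Tmbim6, an ER membrane protein that opposes cell death, 917 and 815 CPM (0.17, SE 0.06). With the abundance trend removed Atp2a3 was at 0.18 and Tmbim6 at 0.05, and with total-count scaling Tmbim6 was at 0.10.

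Yipf5 and Ier3ip1 encode membrane proteins that work in transport from the ER to the Golgi, and the loss of either in people combines early diabetes with microcephaly and epilepsy. Yipf5 (ENSMUSG00000024487.6) read 165, 187 and 165 CPM in sgLTN1 libraries and 162, 156 and 140 CPM in sgNT libraries. The groups did not overlap, but sgLTN1 libraries 1 and 3 lay close to sgNT library 1. The fold was 1.13 with a 95% interval of 1.00 to 1.27 (log2 fold change 0.17, SE 0.08, adjusted p = 0.318).

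Ier3ip1 (ENSMUSG00000090000.3) read 50.1, 57.1 and 58.2 CPM in sgLTN1 libraries and 52.5, 52.0 and 46.2 CPM in sgNT libraries. Library 1 of sgLTN1 lay inside the sgNT range, so the groups overlapped. The fold was 1.09 with a 95% interval of 0.952 to 1.25 (log2 fold change 0.13, SE 0.09, adjusted p = 0.548). The ratio of Yipf5 to Ier3ip1 counts was 3.29, 3.27 and 2.83 in sgLTN1 libraries against 3.08, 3.01 and 3.04 in sgNT libraries, a mean difference of 0.04 on the log2 scale (exact permutation p = 0.7, also 0.7 after adjustment over the 3 pairs).

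**Figure D2:**
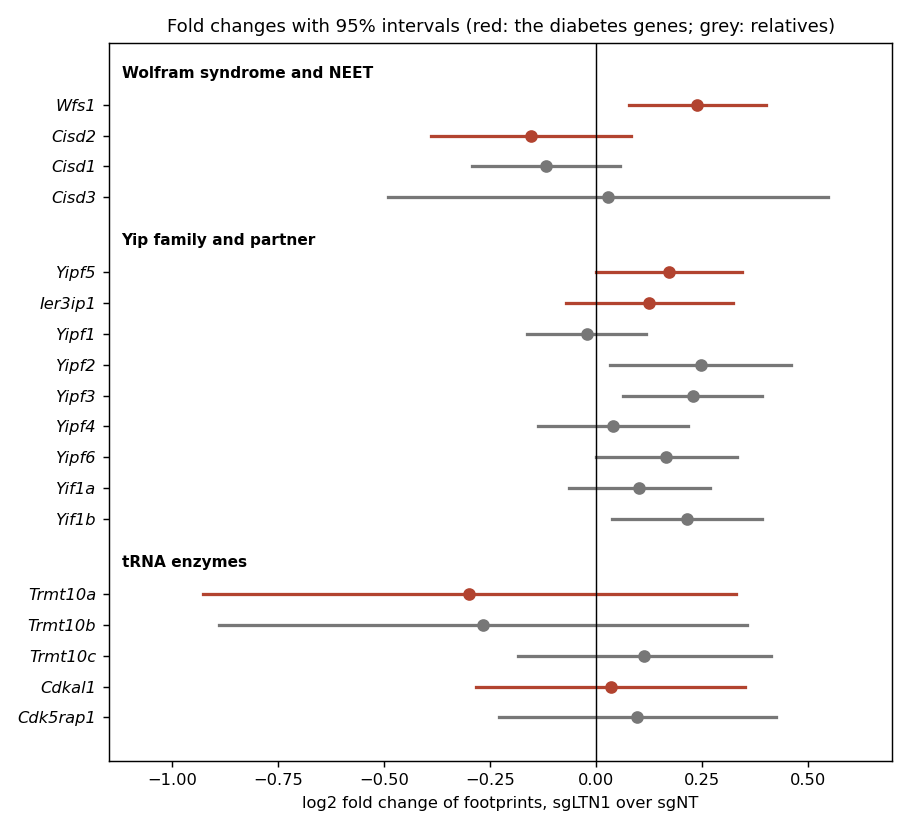
Log2 fold changes of footprints, sgLTN1 over sgNT, with 95% intervals from edgeR's quasi-likelihood fit, for the 6 diabetes genes tested (red) and their relatives (grey). The intervals of Wfs1 and of Yipf2, Yipf3 and Yif1b lie above 0, that of Yipf5 begins close to 0, and those of Trmt10a and Trmt10b are the widest.

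The other Yip family members gave values on both sides of Yipf5. Yipf3, a Golgi member, read 192, 212 and 195 CPM in sgLTN1 libraries and 177, 179 and 155 CPM in sgNT libraries, with no overlap (0.23, SE 0.07, adjusted p = 0.19). Yipf2 read 63.7 ± 0.944 CPM in sgLTN1 cells and 53.7 ± 7.52 CPM in sgNT cells, also without overlap (0.25, SE 0.10, adjusted p = 0.251). Yipf6 read 63.5 ± 3.36 and 56.4 ± 1.87 CPM in sgLTN1 and sgNT cells (0.17, SE 0.08) and Yif1b, whose product pairs with Yip1-type proteins, 216 ± 21.3 and 186 ± 10.3 CPM (0.22, SE 0.08), again with no overlap. With total-count scaling Yipf6 was at 0.09 and Yif1b at 0.14. Yif1a (0.10, SE 0.08), Yipf4 (0.04, SE 0.08, turning negative with total-count scaling) and Yipf1 (-0.02, SE 0.06) overlapped between the groups. None of them passed over all genes.

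All 30 genes of the wider list of the Yip family and the early secretory pathway were tested, none passed, 27 lay above 0 where 47.3% of all tested genes did, and the median was 0.12. The groups did not overlap for 16 of the 30, against 20.2% of all tested genes. With total-count scaling 19 of 30 lay above 0 (median 0.04, where the median of all tested genes was -0.09), and with the abundance trend removed 23 of 30 did (median 0.08). Lman1, a cargo receptor for glycoproteins, read 1036, 1056 and 996 CPM in sgLTN1 cells and 840, 875 and 879 CPM in sgNT cells (0.25, SE 0.05, adjusted p = 0.0912). Surf4, a cargo receptor of ER exit, read 974 ± 64.7 and 828 ± 37.4 CPM in sgLTN1 and sgNT cells (0.23, SE 0.06), and Mia3, which helps large cargo leave the ER, 914 ± 14.7 and 818 ± 31.7 CPM (0.16, SE 0.05). With the abundance trend removed the log2 fold changes were 0.13 for Lman1, 0.11 for Surf4 and 0.04 for Mia3, and with total-count scaling Mia3 was at 0.09.

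Trmt10a encodes the methyltransferase that modifies guanosine at the ninth position of several tRNAs, and its loss in people causes young-onset diabetes with microcephaly and short stature. Trmt10a (ENSMUSG00000004127.13) had 50, 26 and 17 counts in sgLTN1 libraries and 21, 26 and 28 counts in sgNT libraries, or 4.51, 2.82 and 3.49 CPM against 4.81, 3.22 and 6.04 CPM. The groups overlapped and the highest value was that of sgNT library 3. The fold was 0.813 with a 95% interval of 0.525 to 1.26 (log2 fold change -0.30, SE 0.29, adjusted p = 0.677), the widest interval of the 6 tested genes. The log2 fold change ran from -0.56 without sgNT library 2 to -0.07 without sgNT library 3. The SD over the sgNT libraries was 30.2% of the mean, against 20.1% that counting error alone gives at these counts. Its relatives Trmt10b (-0.27, SE 0.28) and Trmt10c (0.11, SE 0.14), the mitochondrial member, overlapped between the groups.

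Cdkal1 encodes an ER-anchored enzyme that adds a methylthio group to the lysine tRNA read at AAA and AAG codons, which are among the codons of proinsulin. Cdkal1 (ENSMUSG00000006191.18) had 118, 99 and 59 counts in sgLTN1 libraries and 55, 86 and 43 counts in sgNT libraries, or 10.7, 10.8 and 12.1 CPM against 12.6, 10.6 and 9.28 CPM. The sgLTN1 range lay inside the sgNT range. The fold was 1.02 with a 95% interval of 0.822 to 1.28 (log2 fold change 0.03, SE 0.14, adjusted p = 0.959). The sign turned to -0.04 with total-count scaling, -0.05 without sgNT library 3 and -0.01 without sgLTN1 library 3. Its mitochondrial relative Cdk5rap1 read 10.6 ± 0.829 CPM in sgLTN1 cells and 9.73 ± 1.39 CPM in sgNT cells (0.10, SE 0.15).

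The ratio of Cdkal1 to Trmt10a counts was 2.36, 3.81 and 3.47 in sgLTN1 libraries and 2.62, 3.31 and 1.54 in sgNT libraries, with overlap (mean log2 difference 0.41, exact permutation p = 0.4, 0.6 after adjustment over the 3 pairs). Of 65 tested genes of other tRNA modifying enzymes, none passed, 26 lay above 0 and 39 below, and the median was -0.06. Of all tested genes, 47.3% lay above 0. With the abundance trend removed 28 of the 65 lay above 0 (median -0.03). With total-count scaling 18 of the 65 did (median -0.13, where the median of all tested genes was -0.09). The 4 genes of this list with a mean of at least 10 CPM and the smallest p were all below 0 in sgLTN1 cells. Trmt1l, a relative of the dimethylguanosine enzyme Trmt1, read 25.1, 23.8 and 25.7 CPM in sgLTN1 cells and 33.2, 30.3 and 27.0 CPM in sgNT cells (-0.28, SE 0.10, adjusted p = 0.205). Trmt1 itself (-0.27, SE 0.12), Mettl1, which makes the methylguanosine of the variable loop (-0.32, SE 0.14), and Trmt2b, a mitochondrial methyluridine enzyme (-0.28, SE 0.13), did not overlap between the groups either. Over the whole list the groups did not overlap for 10 of 65 genes, against 20.2% of all tested genes. Whether these shares differ was not tested.

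**Figure D3:**
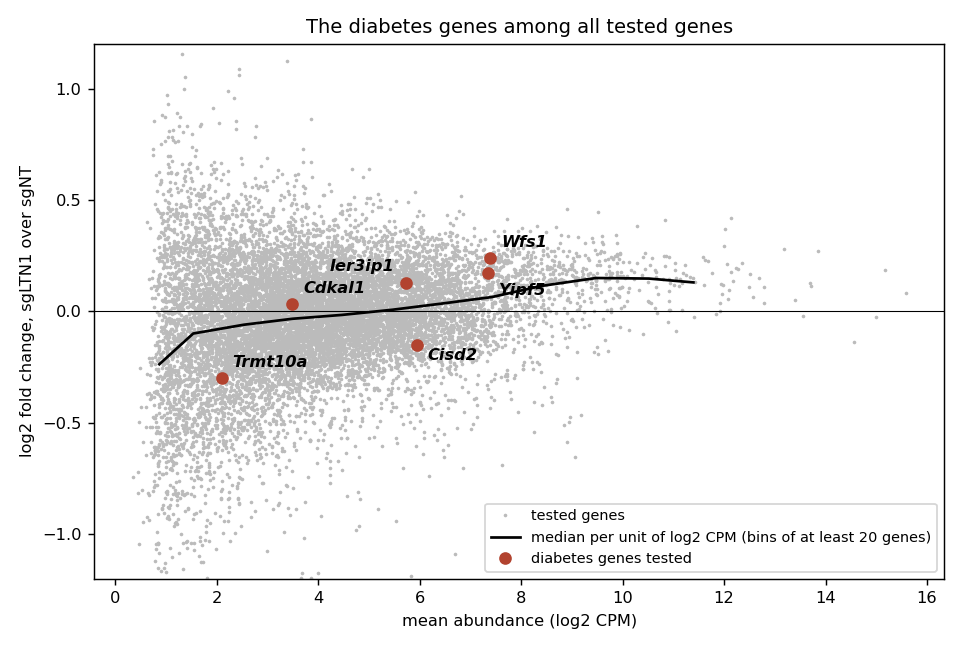
Log2 fold change (sgLTN1 over sgNT) against mean abundance in log2 CPM for the tested genes (grey, with 42 genes outside the plotted range of -1.2 to 1.2), their median in steps of abundance (black line) and the 6 diabetes genes tested (red). The median line climbs from low to high abundance; Wfs1 and Yipf5 lie above it at high abundance, and Cisd2 and Trmt10a lie below it.

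Fold changes moved with abundance in these libraries, so each member was also fitted after that trend was removed. Wfs1 was then at 0.17 (adjusted p = 0.243) and Yipf5 at 0.11 (adjusted p = 0.476), both lower than before, while Ier3ip1 stayed at 0.12, Cisd2 at -0.16 and Trmt10a at -0.27. Total-count scaling gave 0.16 for Wfs1, 0.10 for Yipf5 and 0.05 for Ier3ip1, where the median of all tested genes was -0.09. The direction of these 5 genes was the same in all 5 scalings tried.

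Beyond the 7 genes, 42 other genes of monogenic or syndromic diabetes were in the table and 32 were tested. None passed over all genes, and 21 lay above 0 and 11 below, where 47.3% of all tested genes lay above 0. The median was 0.06, against -0.02 over all tested genes. With total-count scaling it was -0.02, where the median of all tested genes was -0.09. Abcc8, the sulfonylurea receptor subunit of the beta-cell potassium channel, read 3573, 3747 and 3266 CPM in sgLTN1 libraries and 3165, 3084 and 2806 CPM in sgNT libraries (0.23, SE 0.07, adjusted p = 0.161, and 0.07 with the abundance trend removed). Eif2ak3, the ER stress kinase PERK whose loss causes neonatal diabetes, read 90.4, 89.2 and 80.8 CPM in sgLTN1 libraries and 79.5, 69.6 and 64.9 CPM in sgNT libraries (0.29, SE 0.09, adjusted p = 0.168). The thiamine transporter gene Slc19a2 (0.31, SE 0.11) and the potassium channel gene Kcnk16 (0.49, SE 0.17) also had values without overlap. Over the whole list the groups did not overlap for 10 of the 32 genes, against 20.2% of all tested genes. Whether these shares differ was not tested. The insulin genes Ins1 (0.11, SE 0.07) and Ins2 (0.08, SE 0.08) overlapped between the groups.

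**Figure D4:**
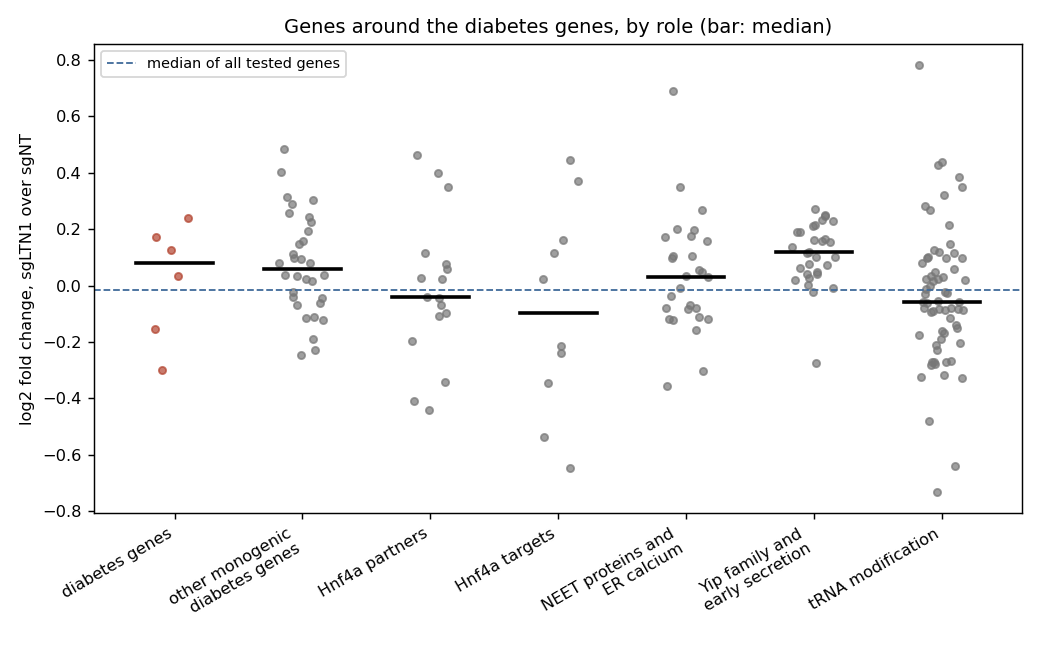
Log2 fold change (sgLTN1 over sgNT) of each tested gene in the list of diabetes genes (red) and in 6 lists of related genes (grey), with the median of each list (black bar) and of all tested genes (dashed line). The medians run from -0.10 for Hnf4a targets to 0.12 for the Yip family and early secretory genes.

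The genes whose values over the 6 libraries were most like each member were found by the Pearson correlation of log2 CPM, among tested genes of at least 10 CPM. Such a measure over 6 libraries is loose, since 601 of 7513 genes had an r above 0.9 with Wfs1 and 337 with Yipf5, but only 24 with Cisd2. For Wfs1 the nearest were Tram1 (r = 0.998), a protein of the ER translocation channel, and Mfsd11 (r = 0.996). For Yipf5 they were Pcsk1 (r = 0.992), the prohormone convertase of proinsulin, and Greb1l (r = 0.990), and for Ier3ip1 Ffar1 (r = 0.994), the fatty acid receptor of beta cells, and Psen2 (r = 0.980). Those of Cisd2 were Atic (r = 0.971) and Dnajc12 (r = 0.961), those of Cdkal1 Bbx (r = 0.983) and Nit1 (r = 0.972), and those of Trmt10a Hmbox1 (r = 0.996) and Alyref (r = 0.994). For Hnf4a, with its few counts, they were Ndufb8 (r = 0.990) and Slc25a40 (r = 0.979). The libraries share depth and scaling across genes.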

How the data were processed

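Ribosome footprints of MIN6 cells were analysed in 3 sgLTN1 and 3 sgNT libraries, grouped by the genotype in the labels and numbered by the titles, under a single batch label. The authors deposited whole-number counts per gene. Per the submitters' processing notes, build GRCm39 was used with featureCounts 2.12.3, SAMtools 1.9, STAR 2.7.11a, Bowtie2 2.5.4, UMI-tools 1.1.2 and fastp 0.23.4. The sources used here give no roles, annotation, strand setting or handling of multiply aligned reads. A second table that the authors deposited holds, per the file headers, DESeq2 results (1.38.3 in the notes): log2 fold changes, the mean normalized count as a signal, the Wald statistic as a score, and p-values. Its sign matched sgLTN1 over sgNT for 95.8% of tested genes.

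The analysis used edgeR 4.0.16 and limma 3.58.1 under R 4.3.3: filterByExpr left 12782 of 21652 genes, TMM scaled the libraries, and the quasi-likelihood test used group as the only term, with Benjamini-Hochberg adjustment and a threshold of 0.05. Standard errors and 95% intervals come from the test statistic. Log2 CPM values use a prior count of 2. The fit was tested on simulated data. DESeq2 1.42.0 and limma voom were alternatives. List medians under each scaling were added after seeing the data. Replicate libraries differed by more than sampling noise (chi-square per degree of freedom of at least 2.55). Counting intervals assume independent reads. Promoter windows come from RefSeq tables of build GRCm38.p6, matched by symbol for 5 of the 7 genes.

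The members and lists were chosen with earlier results of these data known. The text names the 7 members, Ltn1, their nearest relatives, every list member past the threshold, otherwise up to 4 with the smallest p at a mean of at least 10 CPM, and the 2 genes most like each member. Not every gene named by this rule is described. Some genes are not reported here.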

Additional observations from a re-analysis of the deposited data

How the results depend on the processing

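Of the 12782 genes tested, 23 passed the threshold. The number was 42 with total-count scaling, 222 of 20854 genes without the filter, 227 of the 2697 genes with an adjusted p in DESeq2 (as many as in the authors' deposited table), 40 with limma voom, 14 with the abundance trend removed, and between 4 (without sgLTN1 library 2) and 333 (without sgLTN1 library 3) when single libraries were left out. No diabetes gene that had an adjusted p passed under any of these, except Wfs1 without sgLTN1 library 3, so that 0 to 1 members passed when single libraries were left out. Trmt10a, Cdkal1 and Hnf4a had none in DESeq2, and Hnf4a had one only without the filter, without sgNT library 1 and without sgLTN1 library 3. Ltn1 passed in each. Of the genes in the 6 related lists, 1 passed (Ttr). The number was 3 without the filter, 7 with DESeq2, 0 with DESeq2 size factors in edgeR, 0 with the abundance trend removed, and 7 without sgLTN1 library 3 but 0 without any other single library. The direction of each tested member held under every alternative except for Cdkal1, which turned to -0.041 with total-count scaling and ranged from -0.045 to 0.155 when single libraries were left out. The causes were not tested. The depth limits Hnf4a, with 3 to 11 counts per library, and Trmt10a, with 17 to 50.

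Same-numbered libraries of the 2 groups deviated from their group means with correlations of -0.05, 0.07 and 0.09, so the numbers were not taken to pair the libraries. With the replicate block, 609 genes passed, among them 16 of the related lists and 1 member, Wfs1 (0.24, adjusted p = 0.0269), while Yipf5 did not (adjusted p = 0.129).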
